A study of Mus musculus with 6 samples.

Results

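The genes described here are 32 listed members of the p53 pathway and of the cellular response to DNA damage, taken by gene symbol from a table of 54532 genes. All 32 symbols were found once. The table holds messenger RNA levels in mouse hearts from 6 libraries, 3 labelled Ythdc1flox/flox (flox control: both Ythdc1 alleles carry loxP sites and no deletion is named) and 3 labelled Ythdc1-CKO (CKO: conditional knockout of Ythdc1). All mice had normal chow for 15 days, and the labels describe the libraries as independent biological replicates. The series text writes HKO for the knockout, and both names were read as 1 group. The labels name neither the Cre driver, nor the cells in which the gene was deleted, nor the age or sex of the mice. Ythdc1 encodes a nuclear protein that reads N6-methyladenosine, a base modification of RNA.

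p53, encoded by Trp53, is a transcription factor that is kept low by the ubiquitin ligase Mdm2 and its partner Mdm4. DNA damage and other stresses stabilize the protein, so p53 activity is set mainly at the protein level and is usually read from its target genes. Those targets arrest the cell cycle, start apoptosis, repair DNA and adjust metabolism, and Mdm2 is itself a target, which closes a negative feedback loop. Several genes known as p53 targets are also raised by other stress factors, such as ATF4 and CHOP of the integrated stress response.

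Levels are in FPKM (fragments scaled by gene length and by a factor for each library), so genes can be compared with each other per length. The comparison asked which of these genes differed between CKO and flox control hearts. Differences are given on the log2(FPKM + 1) scale, CKO minus flox control, which understates the change of low genes; folds without log2 are ratios of mean FPKM. A gene was called at an adjusted p under 0.05 (limma, adjusted over the 12144 genes whose average level reached 1 FPKM).

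The targeted gene followed the labels. Ythdc1, with libraries given in the order 1, 2 and 3 here and throughout, read 4.31, 3.64 and 4.10 FPKM in the controls, against 2.39, 2.57 and 2.34 FPKM in the CKO hearts (log2 difference -0.54, SE 0.09, adjusted p = 0.015). The summed exons include any outside the deleted part. This call failed with any of 3 libraries left out: the adjusted p was 0.0707 without flox control 1, 0.0637 without flox control 3 and 0.0535 without CKO 3. It was 0.0888 after rescaling to equal FPKM sums. Each library held 17434296 to 19360428 reads assigned to genes. Sex-linked genes set CKO 3 apart: Xist had 4037 reads there and at most 5 elsewhere, and Y-linked Ddx3y had 0.350 FPKM there and 10.8 to 15.9 FPKM elsewhere. Summed cardiomyocyte markers (10 of 10 found, none at 0) reached 12700 to 13838 FPKM in flox controls and 10021 to 13632 FPKM in CKO, so heart muscle genes were abundant in every library.

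Promoter sequences are shown first because p53 recognizes a defined DNA element. RefSeq promoter windows on GRCm38.p6, from 250 bases before to 50 after a transcript start, were present for 24 of the 32 members (32 windows). Each window was searched on both strands for exact matches to the p53 half-site consensus, a 10-base palindromic pattern that reads as 3 purines, C, 2 bases that are each A or T, G and 3 pyrimidines. At least 1 half-site was found for 10 of the 24 members (41.67%), against 2582 of 27025 genes (9.55%) with windows of the same length. The members were listed for their link to p53, so this share is a description of the list. Of members with a window, 2 of the 6 called higher in CKO hearts and 8 of the 17 not called held a half-site. Members with no entry were Pmaip1, Perp, Zmat3, Tnfrsf10b, Ddb2, Xpc, Rrm2b and Trp53inp1.

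The only member window with 2 exact half-site matches 0 to 13 bases apart belonged to Cdkn1a. Such a pair was present in 24 of 32851 windows (0.0731%), and pairs with any mismatch were not counted. The Cdkn1a pair lies at chr17:29090906-29090937, plus strand, upstream of the first exon of the upstream Cdkn1a transcript. Between its half-sites are 12 bases. The window at chr17:29090729-29091028 is shown whole, since Cdkn1a had the largest difference of all members, with the 2 exact matches in capitals. Which bases p53 binds there was not tested.
Cdkn1a: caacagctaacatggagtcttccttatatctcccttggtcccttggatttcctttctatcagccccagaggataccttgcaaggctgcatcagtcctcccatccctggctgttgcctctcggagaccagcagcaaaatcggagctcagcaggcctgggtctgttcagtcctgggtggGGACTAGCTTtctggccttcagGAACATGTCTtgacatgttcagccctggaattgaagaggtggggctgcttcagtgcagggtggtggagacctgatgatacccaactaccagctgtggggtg

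The 10 bases directly after the second Cdkn1a half-site differed from the consensus at 1 position, and so did the 10 bases directly before the half-site of Ccng1. A half-site with such a neighbour was found for these 2 of 24 members (8.33%) and for 29 of 27025 genes (0.107%). Other half-sites are shown for the called member Polk and for members that were not called. Each is in capitals with 10 bases on either side.
Polk, chr13:96519399-96519428, minus strand, called higher: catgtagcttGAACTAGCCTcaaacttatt
Ccng1, chr11:40755452-40755481, minus strand, not called: agacctgcccGGGCAAGCCTtggcactgaa
Mdm2, chr10:117710925-117710954, minus strand, not called: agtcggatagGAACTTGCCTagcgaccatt
Bax, chr7:45467080-45467109, minus strand, not called: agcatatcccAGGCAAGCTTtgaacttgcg
Aen, chr7:78895927-78895956, plus strand, not called: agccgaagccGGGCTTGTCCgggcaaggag
Trp53, chr11:69580274-69580303, plus strand, not called: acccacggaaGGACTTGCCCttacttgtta
The Polk half-site lies in 1 of its 2 windows, at a start inside the gene, which runs from 96480690 to 96542579. The half-sites of Ei24, Gadd45a and Sesn1 are not shown. A match is a string of letters in a window and was not tested for binding; elements outside these windows were not searched.

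CKO hearts had higher levels of 7 of the 30 members that could be tested, and 0 members were called lower. The 7 were Cdkn1a, Gadd45g, Phlda3, Perp, Polk, Dcxr and Ephx1, with ratios of mean FPKM from 1.74 to 3.69. Over all genes tested 11.2% were called, 5.69% higher and 5.49% lower, against 23.3% of the members. At an unadjusted p under 0.05, 14 members passed, of which Mdm4 was the only one with a lower level; 3365 of 12144 genes passed that level. Limma's voom model on recovered reads called 8 members higher and 0 lower, and 5.84% of all genes higher. The median log2 difference was 0.22 over the 30 members and 0.0076 over all genes tested, and 22 of 30 members had a positive difference, against 6204 of 12144 genes.

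The 3 CKO values lay above all 3 control values in 12 members and below them in 2. Among all genes tested these shares were 16.9% and 17.4%. Psrc1 and Pmaip1 stayed under 1 FPKM on average and were not tested, so these counts do not cover all members. Eda2r passed the filter with a control mean of 0.981 FPKM, through its CKO level. The count of called members rested on the libraries used: leaving out flox control 1, 2 or 3 gave 1, 4 or 4 called members (2.59%, 4.96% or 3.89% of all genes), and leaving out CKO 1, 2 or 3 gave 7, 4 or 4 (12.3%, 5.89% or 4.77% of all genes).

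**Figure D1:**
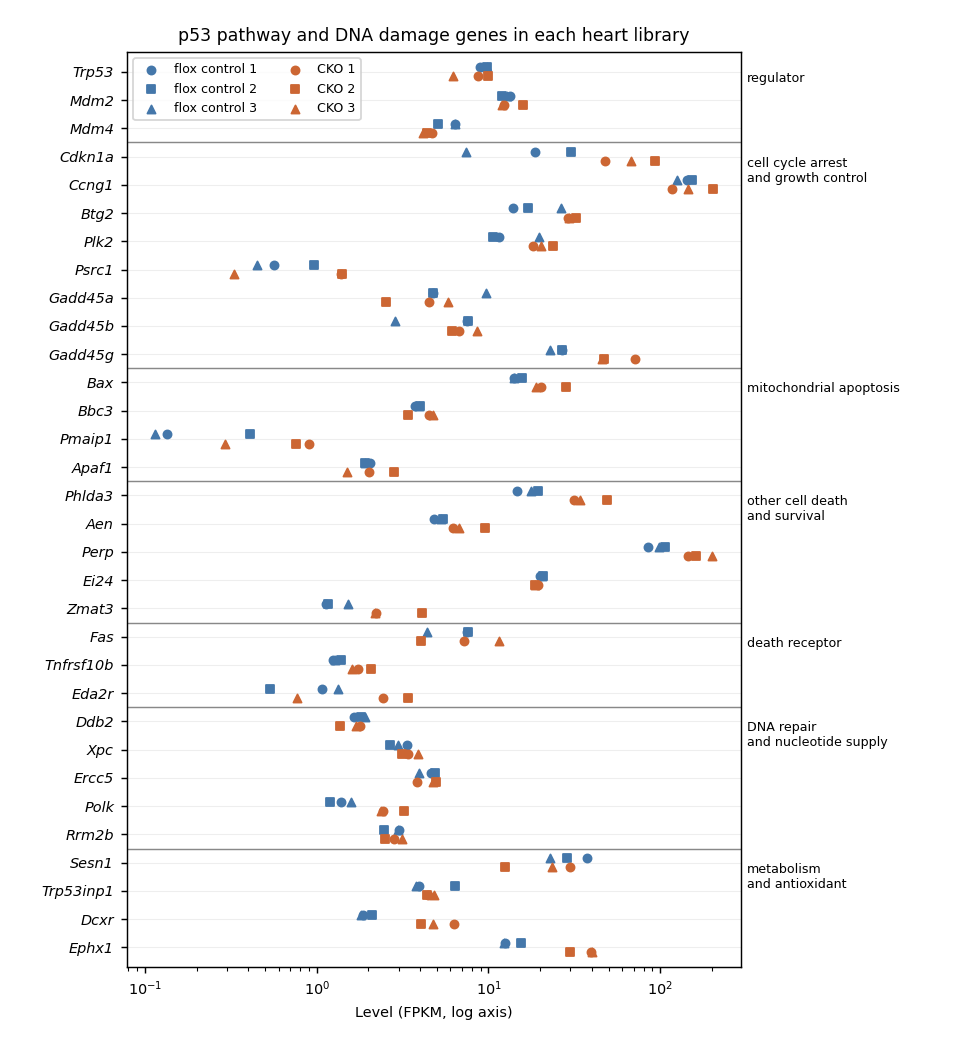
Level of each member (FPKM, log axis) in the 6 libraries, 1 point per library, flox controls in blue and CKO in orange, grouped by role. Blue and orange points are apart for Cdkn1a, Gadd45g, Phlda3, Perp, Polk, Dcxr and Ephx1, and overlap for Trp53 and Mdm2.

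**Figure D2:**
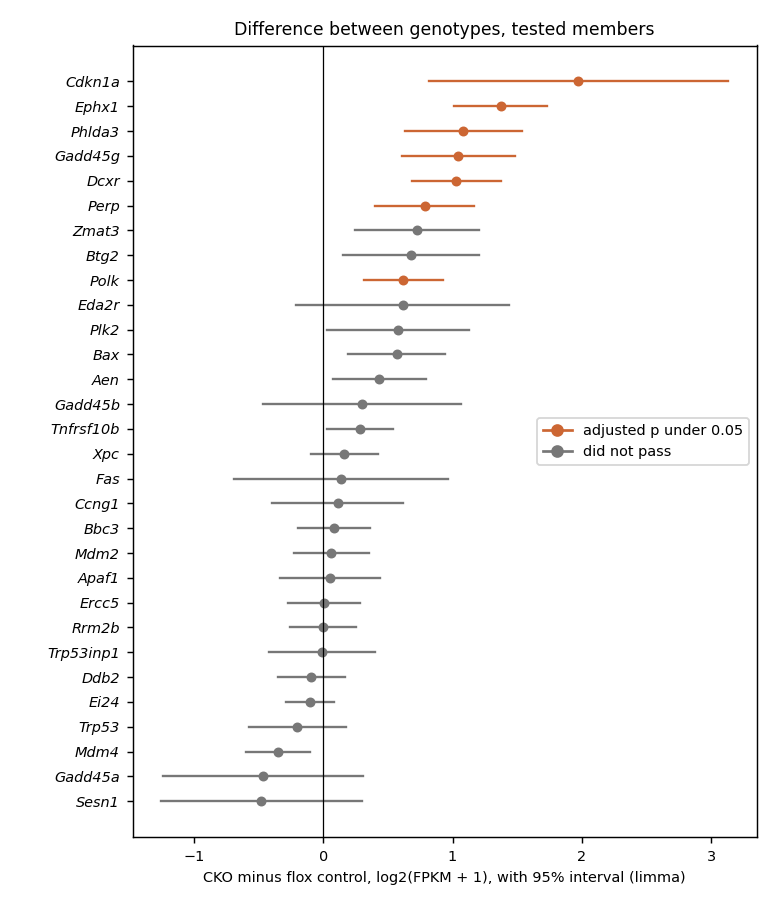
Difference of CKO from flox control on the log2(FPKM + 1) scale for the 30 tested members, points with 95% intervals from limma, sorted by size. The 7 members in orange passed at an adjusted p under 0.05, all to the right of 0.

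The regulators of the pathway did not pass. Trp53, which encodes p53, read 8.95, 9.75 and 9.85 FPKM in the controls, against 8.72, 9.91 and 6.22 FPKM in the CKO hearts. The groups overlapped, and the log2 difference was -0.20 with a 95% interval from -0.57 to 0.17 (adjusted p = 0.461). Mdm2, the main ubiquitin ligase of p53 and a target of it, read 13.4, 11.9 and 12.9 FPKM in the controls, against 12.3, 15.8 and 12.1 FPKM in the CKO hearts. Only CKO 2 lay above the control range, and the interval of the difference ran from -0.23 to 0.35 (adjusted p = 0.792), which does not hold a doubling on this scale. Without CKO 2 the difference was -0.06. Mdm4, the p53 inhibitor related to Mdm2, read 6.34, 5.06 and 6.35 FPKM in the controls, against 4.68, 4.40 and 4.14 FPKM in the CKO hearts. All 3 CKO values of Mdm4 lay below the controls, but the difference of -0.35 did not pass (adjusted p = 0.0802). It passed with library weights (adjusted p = 0.0469).

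Genes of cell cycle arrest held the largest difference. Cdkn1a (ENSMUSG00000023067, GRCm38 chromosome 17, 29090976 to 29100727, plus strand) encodes p21, the inhibitor of cyclin-dependent kinases through which p53 halts the cycle, and its promoter window is the one printed above. It read 18.7, 30.3 and 7.38 FPKM in the controls, against 47.6, 92.8 and 68.0 FPKM in the CKO hearts. The groups did not overlap although the controls themselves spanned several-fold. Means rose from 18.8 ± 11.5 to 69.5 ± 22.6 FPKM (SD, n = 3 each), 3.69-fold, with a log2 difference of 1.97 (SE 0.49, adjusted p = 0.0479). This call failed with any of 4 libraries left out: the adjusted p was 0.128 without flox control 1, 0.0748 without flox control 3, 0.127 without CKO 2 and 0.119 without CKO 3. It also failed with a pseudocount of 0.1 (0.0512), without a variance trend (0.0504) and with no filter (0.112). An antisense gene, AC167363.2, overlaps 7.68% of the exonic bases of Cdkn1a and measured 0.655 and 1.73 FPKM on average in controls and CKO. Strand marking is not described, so reads of AC167363.2 cannot be told apart from those of Cdkn1a there.

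The Gadd45 genes encode 3 related stress-induced proteins that bind cyclin-dependent kinase and MAP kinase partners, and only Gadd45g was called. Gadd45g (ENSMUSG00000021453, chromosome 13, 51846678 to 51848468, plus strand) read 26.9, 26.8 and 22.9 FPKM in the controls, against 70.8, 47.4 and 45.6 FPKM in the CKO hearts. It rose 2.14-fold, with no overlap and CKO 1 highest (log2 difference 1.04, SE 0.18, adjusted p = 0.0189). This call did not hold on leaving out flox control 1 (adjusted p = 0.0699), 2 (0.0584) or 3 (0.0707). Gadd45a read 4.73, 4.74 and 9.67 FPKM in the controls, against 4.52, 2.53 and 5.82 FPKM in the CKO hearts. Gadd45b read 7.48, 7.60 and 2.84 FPKM in the controls, against 6.70, 6.11 and 8.54 FPKM in the CKO hearts. Both overlapped between groups, with flox control 3 apart from the other controls in opposite directions, highest for Gadd45a and lowest for Gadd45b (differences -0.47 and 0.30, adjusted p = 0.399 and 0.6). E230016M11Rik lies antisense over 19.1% of the exonic bases of Gadd45a, at 0.586 and 0.543 FPKM.

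Btg2 and Plk2 had higher CKO means without passing. Btg2, an antiproliferative gene of the BTG/TOB family, read 13.9, 16.9 and 26.6 FPKM in the controls, against 28.9, 32.2 and 29.6 FPKM in the CKO hearts. The groups did not overlap, but flox control 3 came close to CKO (log2 difference 0.68, adjusted p = 0.099). Plk2, a polo-like kinase, read 11.6, 10.6 and 19.7 FPKM in the controls, against 18.2, 23.7 and 20.3 FPKM in the CKO hearts, where flox control 3 lay within the CKO range (0.58, adjusted p = 0.16). Without flox control 3 both passed, at adjusted p of 0.0302 for Btg2 and 0.0409 for Plk2.

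Ccng1, which encodes cyclin G1, had the highest mean FPKM of all members in controls. It read 143, 153 and 125 FPKM in the controls, against 117, 203 and 146 FPKM in the CKO hearts. CKO held both the lowest and the highest library, and the difference was 0.11 with an interval from -0.39 to 0.62 (adjusted p = 0.778). Psrc1, a microtubule-associated gene induced by p53, was under the filter, with 0.563, 0.965 and 0.447 FPKM in the controls, against 1.39, 1.41 and 0.328 FPKM in the CKO hearts from 20 to 92 reads a library. CKO 1 and CKO 2 lay above the controls and CKO 3 below them.

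Genes of mitochondrial apoptosis did not pass. Bax, whose product opens the outer mitochondrial membrane, read 14.04, 15.7 and 14.01 FPKM in the controls, against 20.3, 28.2 and 18.8 FPKM in the CKO hearts. All CKO values were above the controls (log2 difference 0.57, SE 0.16, adjusted p = 0.0658), and with library weights the adjusted p was 0.0433. Bbc3, which encodes the BH3-only protein PUMA, read 3.73, 3.99 and 3.94 FPKM in the controls, against 4.51, 3.39 and 4.73 FPKM in the CKO hearts. Apaf1, the scaffold of the apoptosome, read 2.04, 1.92 and 1.92 FPKM in the controls, against 2.01, 2.83 and 1.49 FPKM in the CKO hearts. In both, the tight control values lay inside the CKO range, with intervals from -0.20 to 0.36 for Bbc3 and from -0.34 to 0.44 for Apaf1 (adjusted p = 0.703 and 0.878). Pmaip1, which encodes the BH3-only protein NOXA, was not tested, at 0.134, 0.409 and 0.114 FPKM in the controls, against 0.906, 0.758 and 0.292 FPKM in the CKO hearts. It rested on 6 to 43 reads a library, and flox control 2 lay above CKO 3.

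Other genes of cell death and survival included 2 of the 7 calls. Phlda3 (ENSMUSG00000041801, chromosome 1, 135766119 to 135769136, plus strand) encodes a pleckstrin homology protein that restrains AKT. It read 14.6, 19.4 and 17.8 FPKM in the controls, against 31.5, 49.3 and 34.1 FPKM in the CKO hearts. It rose 2.21-fold with no overlap and CKO 2 highest (log2 difference 1.08, SE 0.19, adjusted p = 0.0189). This call did not hold on leaving out flox control 1 (adjusted p = 0.0768) or 3 (0.0637). Perp (ENSMUSG00000019851, chromosome 10, 18845020 to 18857073, plus strand), a membrane protein gene of desmosomes and p53-dependent death, read 85.4, 107 and 98.8 FPKM in the controls, against 144, 162 and 199 FPKM in the CKO hearts. It rose 1.74-fold with CKO 3 highest (log2 difference 0.78, SE 0.16, adjusted p = 0.0286). The call held without CKO 1 (adjusted p = 0.0231) and failed on leaving out flox control 1 (0.112), 2 (0.0622) or 3 (0.0894), CKO 2 (0.0669) or CKO 3 (0.0645), and with no filter (0.0594).

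Zmat3 and Aen were higher in every CKO library without passing. Zmat3, which encodes a p53-induced zinc finger RNA-binding protein, read 1.13, 1.17 and 1.51 FPKM in the controls, against 2.21, 4.10 and 2.20 FPKM in the CKO hearts (log2 difference 0.72, adjusted p = 0.0666). It passed by voom (adjusted p = 0.0474) and with library weights (0.0466). Aen, a p53-induced nuclease gene, read 4.84, 5.47 and 5.28 FPKM in the controls, against 6.23, 9.52 and 6.72 FPKM in the CKO hearts (0.43, adjusted p = 0.116). CKO 2 stood above the other CKO libraries in both genes. Ei24, an endoplasmic reticulum membrane protein gene, varied least: it read 20.1, 20.8 and 20.5 FPKM in the controls, against 19.5, 18.7 and 18.7 FPKM in the CKO hearts. Its groups did not overlap, but the difference was only -0.10, with an interval from -0.29 to 0.08 (adjusted p = 0.432).

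None of the 3 death receptor genes passed. Tnfrsf10b, the mouse TRAIL receptor, read 1.25, 1.39 and 1.28 FPKM in the controls, against 1.74, 2.07 and 1.61 FPKM in the CKO hearts, with no overlap (log2 difference 0.28, adjusted p = 0.144). Fas, the receptor of Fas ligand, read 7.49, 7.56 and 4.37 FPKM in the controls, against 7.21, 4.05 and 11.6 FPKM in the CKO hearts, so that CKO held both the lowest and the highest value (0.14, interval from -0.69 to 0.97, adjusted p = 0.839). Eda2r, an X-linked receptor gene of the TNF receptor family, read 1.07, 0.532 and 1.34 FPKM in the controls, against 2.42, 3.40 and 0.768 FPKM in the CKO hearts. CKO 1 and CKO 2 were above all controls and CKO 3, the library with Xist reads, was within their range (0.61, interval from -0.21 to 1.44, adjusted p = 0.302). Without CKO 3 the difference of Eda2r was 0.99 (adjusted p = 0.0661).

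**Figure D3:**
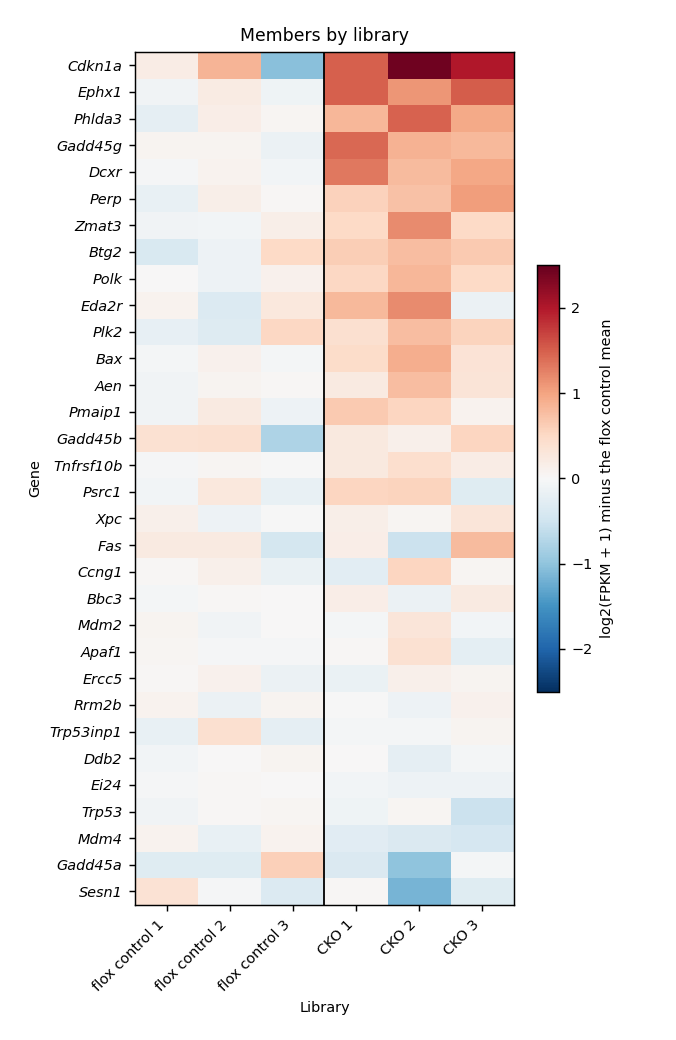
Each library's log2(FPKM + 1) minus the mean of the flox controls for all 32 members, red above and blue below that mean, sorted by the mean of the CKO libraries. Cdkn1a, Ephx1, Phlda3, Gadd45g and Dcxr are red in every CKO library, while of the CKO libraries only CKO 1 and CKO 2 are red for Psrc1 and Eda2r.

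Among genes of DNA repair and nucleotide supply, Polk was the only call. Polk (ENSMUSG00000021668, chromosome 13, 96480690 to 96542579, minus strand) encodes a DNA polymerase that copies past damaged bases. It read 1.38, 1.19 and 1.57 FPKM in the controls, against 2.42, 3.24 and 2.36 FPKM in the CKO hearts. It rose 1.93-fold with no overlap (log2 difference 0.62, SE 0.13, adjusted p = 0.0307), from 116 to 350 reads a library. The call held without CKO 1 (adjusted p = 0.0371) and failed on leaving out flox control 1 (0.106), 2 (0.0899) or 3 (0.0705), CKO 2 (0.0704) or CKO 3 (0.0601), after rescaling to equal FPKM sums (0.0834) and with no filter (0.0796).

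The damage recognition and excision genes overlapped between groups. Ddb2, which binds ultraviolet lesions, read 1.64, 1.81 and 1.91 FPKM in the controls, against 1.79, 1.37 and 1.69 FPKM in the CKO hearts. Xpc, which recognizes distorted DNA, read 3.37, 2.67 and 2.96 FPKM in the controls, against 3.40, 3.13 and 3.91 FPKM in the CKO hearts. Ercc5, the endonuclease that cuts 3′ of a lesion, read 4.61, 4.91 and 3.92 FPKM in the controls, against 3.84, 4.98 and 4.72 FPKM in the CKO hearts. These 3 nucleotide excision repair genes had intervals from -0.35 to 0.16 for Ddb2, from -0.09 to 0.42 for Xpc and from -0.27 to 0.29 for Ercc5. None of these intervals held a difference of 0.5 on the log2(FPKM + 1) scale. That scale understates changes at such low levels, so the limit does not carry over to log2 folds of FPKM. Rrm2b, the p53-induced subunit of ribonucleotide reductase, read 3.02, 2.45 and 2.98 FPKM in the controls, against 2.81, 2.498 and 3.12 FPKM in the CKO hearts. Its 2 groups covered nearly the same range (interval from -0.26 to 0.25). Ddb2 shares 23.8% of its exonic bases with Acp2 on the opposite strand, at 5.50 and 5.87 FPKM.

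Members with roles in metabolism and antioxidant defence held 2 called genes and 2 that did not pass. Ephx1 (ENSMUSG00000038776, chromosome 1, 180976210 to 181020904, minus strand), which encodes microsomal epoxide hydrolase, read 12.4, 15.5 and 12.3 FPKM in the controls, against 39.6, 29.8 and 39.96 FPKM in the CKO hearts. It rose from 13.4 ± 1.82 to 36.5 ± 5.76 FPKM, 2.72-fold (log2 difference 1.37, SE 0.15, adjusted p = 0.00607), and was called without each library in turn (adjusted p from 0.00889 to 0.0352) and under each of the other 8 settings (0.00129 to 0.03). Dcxr (ENSMUSG00000039450, chromosome 11, 120725399 to 120727281, minus strand), which encodes a dicarbonyl and xylulose reductase, read 1.86, 2.09 and 1.80 FPKM in the controls, against 6.28, 4.04 and 4.73 FPKM in the CKO hearts. It rose 2.62-fold (log2 difference 1.03, SE 0.14, adjusted p = 0.0102) from 36 to 129 reads a library, and lost its call only without flox control 1 (adjusted p = 0.0519).

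Sesn1, a stress-induced inhibitor of mTORC1 signaling, had a lower CKO mean without passing. It read 37.7, 28.5 and 22.9 FPKM in the controls, against 29.8, 12.4 and 23.3 FPKM in the CKO hearts, and the low mean rested on CKO 2 (log2 difference -0.48, interval from -1.26 to 0.30, adjusted p = 0.39). Without CKO 2 the difference was -0.14. Trp53inp1, which encodes a p53-induced nuclear protein, read 3.92, 6.35 and 3.77 FPKM in the controls, against 4.42, 4.38 and 4.80 FPKM in the CKO hearts. Its CKO values lay within the control range, which flox control 2 extended upward (-0.01, adjusted p = 0.978).

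Other genes of the pathway were read from lists. Of 44 tested further p53 targets, 8 rose and 4 fell, against 5.69% and 5.49% of all genes, with a median log2 difference of 0.15. Gdf15, a stress-induced cytokine, read 0.575, 0.953 and 0.623 FPKM in the controls, against 21.9, 20.1 and 14.2 FPKM in the CKO hearts (adjusted p = 0.000908). Its control mean of 0.717 FPKM was under the filter, which it passed through its CKO level; with no filter the adjusted p was 0.00693. Slc19a2, a thiamine transporter gene, rose from 2.59 ± 0.124 to 5.89 ± 0.330 FPKM (adjusted p = 0.00413). Sesn2, a paralog of Sesn1, rose from 2.26 ± 0.582 to 6.36 ± 1.11 FPKM (adjusted p = 0.0107). Gdf15 and Slc19a2 were called without each library in turn, while Sesn2 was lost without flox control 1 (adjusted p = 0.0519). The 4 targets that fell were Prkab1, Fbxw7, Crip2 and Tnfaip8, named after their values were seen. Counts of this list ranged from 3 to 9 higher and from 0 to 6 lower without 1 library.

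Gdf15 and Sesn2 also stand in the list of ATF4 and CHOP stress genes. Of 15 tested, 10 rose and 0 fell, against 5.69% and 5.49% of all genes. At an unadjusted p under 0.05, 11 of the 15 passed, against 3365 of 12144 genes, and voom called 11 higher and 0 lower. Asns, Psat1 and Phgdh led that list with Gdf15. Phgdh too passed the filter through its CKO level, with a control mean of 0.866 FPKM (adjusted p with no filter 0.0132). Asns, asparagine synthetase, rose from 1.08 ± 0.343 to 10.9 ± 4.48 FPKM. The median log2 difference was 1.10, against 0.22 for the 30 tested members. Without 1 library 7 to 11 of the 15 were called higher, and with no filter 9 of 16. These lists were chosen with earlier results of these data known and were compared as descriptions.

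Genes that sense or repair DNA damage were read from further lists. Of 18 tested damage sensing and signaling genes, 0 rose and 1 fell (3 at an unadjusted p under 0.05; voom 0 higher and 1 lower). Parp1, which encodes the poly(ADP-ribose) polymerase that marks strand breaks, fell from 13.6 ± 0.794 to 7.79 ± 1.35 FPKM (log2 difference -0.74, adjusted p = 0.0177). This call did not hold on leaving out flox control 1 (adjusted p = 0.0666), 2 (0.0552) or 3 (0.0685) or CKO 2 (0.0537), and after rescaling to equal FPKM sums (0.0562). Of 35 tested repair enzymes, 0 rose and 2 fell (9 at an unadjusted p under 0.05; voom 0 higher and 2 lower). Ung, the uracil DNA glycosylase, fell from 6.59 ± 1.38 to 2.66 ± 0.372 FPKM (adjusted p = 0.0107), and Xrcc1, a scaffold of single-strand break repair, from 4.39 ± 0.306 to 2.62 ± 0.103 FPKM (adjusted p = 0.0112). The Ung call held without each library in turn, and that of Xrcc1 was lost without flox control 1 (adjusted p = 0.0519). The called shares of these lists, 5.56% and 5.71%, were all lower calls and lay close to the 5.49% of all genes called lower. In either direction 11.2% of all genes were called, and 3365 of 12144 genes had an unadjusted p under 0.05. Negative log2 differences were found in 14 of the 18 sensing and signaling genes (median -0.107). They were found in 24 of the 35 repair enzymes (median -0.114), against 5940 of 12144 genes.

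The remaining pathway lists held 1 call. Of 23 tested BCL2 family and caspase genes, 1 rose and 0 fell, against 5.69% and 5.49% of all genes. At an unadjusted p under 0.05, 10 of the 23 passed, against 3365 of 12144 genes. Voom, no variance trend and library weights each called 2 higher and 0 lower. Bok, a relative of Bax, rose from 4.42 ± 0.785 to 7.65 ± 1.05 FPKM (adjusted p = 0.0279); this call did not hold on leaving out flox control 1 (adjusted p = 0.107) or 3 (0.0953), CKO 2 (0.0706) or CKO 3 (0.0675), after rescaling to equal FPKM sums (0.0601) and with no filter (0.0663). None of 16 p53 modifiers and cofactors passed (2 at an unadjusted p under 0.05; voom 0); Smyd2 (adjusted p = 0.125) and Trp53inp2 (0.141) came closest. None of 7 further cyclin-dependent kinase inhibitors and pocket proteins passed (0 at an unadjusted p under 0.05; voom 0), with Cdkn1c at an adjusted p of 0.267 and Cdkn2c at 0.586. None of 14 tested mitotic genes that p53 and p21 are known to lower passed (0 at an unadjusted p under 0.05; voom 0), with Cdc20 at an adjusted p of 0.63 and Ccna2 at 0.763. Those mitotic genes had a sum of 39.2, 67.1 and 30.2 FPKM in the controls, against 57.3, 60.9 and 9.16 FPKM in the CKO hearts, over 16 genes found. All 16 were lowest in CKO 3, the library in which Psrc1 and Eda2r were lower than in the other CKO libraries. Of the 14 mitotic genes tested, 13 had a negative log2 difference (median -0.195), against 5940 of 12144 genes.

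**Figure D4:**
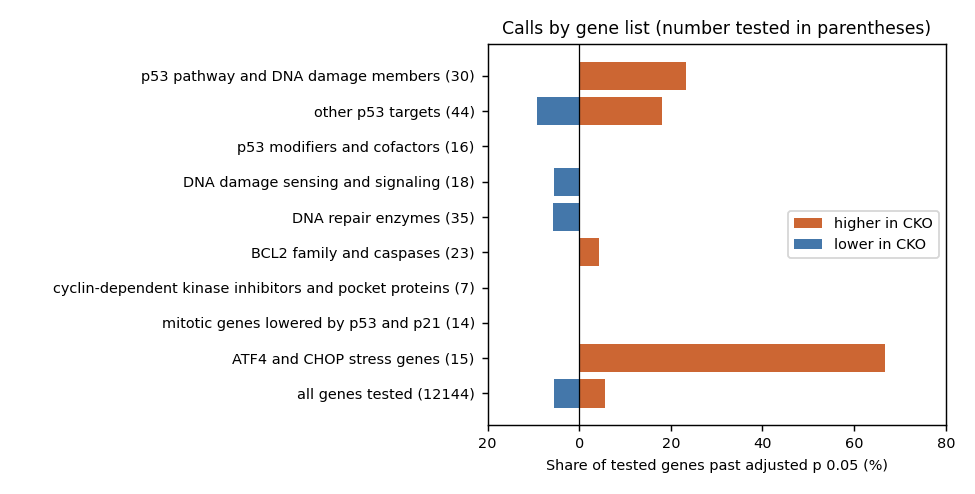
Share of tested genes called higher (right, orange) or lower (left, blue) in CKO, in percent, for the members, the other pathway lists and all genes. The members reached 23.3% higher and 0 lower, and all genes 5.69% higher and 5.49% lower.

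Markers of other cell types were read because whole hearts were sampled; in such samples a change in the number of cells of a type and a change in RNA per cell cannot be told apart. Fibroblast markers (10 of 10 found) summed to 745 to 913 FPKM in flox controls and 830 to 1076 FPKM in CKO, and 1 of 10, Tcf21, was called higher. Endothelial markers summed to 513 to 616 and 517 to 571 FPKM, with Vwf called higher and Tie1 lower, and pericyte and smooth muscle markers to 456 to 813 and 405 to 563 FPKM, with Abcc9 called lower. Of the cardiomyocyte markers Tnni3 was called lower, and 8 of 10 had a negative difference (median -0.28), against 5940 of 12144 genes. The 3 CKO values lay above all 3 control values in 5 of 10 fibroblast markers and below them in 0. For cardiomyocyte markers these counts were 0 and 3 of 10, and for endothelial markers 1 and 4 of 10. For pericyte and smooth muscle markers they were 1 and 2 of 9. Among all genes tested the shares were 16.9% above and 17.4% below. The marker calls also rested on single libraries. That of Tie1 failed with any 1 of the 6 left out (adjusted p from 0.0542 to 0.119) and after rescaling to equal FPKM sums (0.168). That of Tnni3 failed with any library but CKO 3 left out (0.069 to 0.125) and held without CKO 3 (0.0474). Over the same omissions the adjusted p ran from 0.00359 to 0.0633 for Tcf21, from 0.0243 to 0.0622 for Vwf and from 0.0212 to 0.0607 for Abcc9. Macrophage and monocyte markers summed to 156 to 311 FPKM in flox controls and to 905, 189 and 127 FPKM in CKO 1, 2 and 3, with 0 of 9 tested markers called. Of the 7 called members, CKO 1 was the highest CKO library in 2 (Gadd45g and Dcxr) and the lowest in 3 (Cdkn1a, Phlda3 and Perp). Without CKO 1 all 7 calls were kept, while calls over all genes rose from 1358 to 1490. Lymphocyte markers summed to 3.43 to 3.81 FPKM in flox controls and to 9.16, 4.81 and 1.70 FPKM in CKO 1, 2 and 3, with none tested. Epicardial markers stayed between 9.74 and 17.6 FPKM in sum and red cell markers between 657 and 1310 FPKM, with no call in either. Atrial genes summed to 153 to 407 and 548 to 2100 FPKM, and the higher sum came from Nppa, called higher, while the other 4 of 5 had negative differences (median over the 5 -1.90) with Sln called lower. Without 1 library the adjusted p ran from 0.0236 to 0.0691 for Nppa and from 0.0240 to 0.143 for Sln. The part of these markers in the members' differences was not tested.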

How the data were processed

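Poly-A RNA from mouse hearts was sequenced from both ends for 150 bases, per the labels' protocols. The submitters' processing notes list the tools HISAT2 (2.0.5), CASAVA, DESeq2 (1.20.0) and featureCounts (1.5.0-p3), and GRCm38.p6 as the genome, with no role for any of them; filters are not given in the sources used here. The deposited values are FPKM, 1 column per library, made by the authors. Multiplied by gene length and by 1 denominator per library, estimated from the values, 100% of values were whole reads (tolerance 0.001). These denominators followed median-of-ratios size factors (0.928 to 1.09) and not total reads, so the deposited FPKM carry that scaling.

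The 12144 genes whose average reached 1 FPKM entered a single limma fit (version 3.58.1, R 4.3.3) of log2(FPKM + 1) on genotype. It used a trended variance and 2-sided tests, with Benjamini-Hochberg adjustment over all 12144 genes. The script was checked on simulated data. Alternatives covered the pseudocount (0.1), filter (none, or at least 5 FPKM), scaling to equal sums, voom on recovered reads, no variance trend, library weights, a replicate block and each library left out. Every member is named. From each list up to 4 called genes were taken by adjusted p, or the first 2 where none passed; the 4 further p53 targets that fell are named outside this rule. The result of 1 listed gene is not reported here. Members and lists were chosen with earlier results of these data known. Exon overlaps came from GENCODE M21 and promoters from RefSeq, both on GRCm38. Tables were made with Python 3.11.15 and pandas 2.3.3.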

Additional observations from a re-analysis of the deposited data

How the results depend on the processing

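All genes called numbered 1358, but 798 with no filter, 715 with the replicate block and 315 to 1490 without 1 library. Called members numbered 7 (with 11.2% of all genes called), but 4 with no filter (2.95% of all genes) and 1 to 7 without 1 library. The members' median log2 difference was 0.22, and 0.29 with a pseudocount of 0.1, 0.27 with no filter, 0.37 with a filter of 5 FPKM (which tested 18 members), 0.26 after rescaling to equal sums, 0.31 by voom and 0.12 to 0.30 without 1 library. With library weights 10 members were called, 9 higher and 1 lower, while the share of all genes called was 14%. Ephx1 was called under every setting.

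Members that changed sign were uncalled under every setting. Rescaling to equal sums gave 0.0336 for Rrm2b and 0.0347 for Trp53inp1, and library weights gave 0.0705 for Trp53inp1. Leaving out 1 library gave ranges of -0.0563 to 0.127 for Mdm2, -0.10 to 0.30 for Ccng1, -0.0842 to 0.497 for Gadd45b, -0.11 to 0.20 for Apaf1, -0.18 to 0.48 for Fas, -0.0687 to 0.0984 for Ercc5, -0.0754 to 0.0556 for Rrm2b and -0.12 to 0.19 for Trp53inp1. The cause was not tested. Same-numbered libraries did not deviate together (correlations 0.139, 0.0597 and -0.00548), so the number was not taken as a pairing; flox control 3 correlated best with CKO 2 (0.141), the other controls with their own number. The block called 5 members and 5.89% of all genes, without Perp (adjusted p = 0.0563) and Polk (0.0846). Among the other genes called without the block, those that did not pass with it included Ythdc1 (0.0542), Parp1 (0.0525), Tie1 (0.0987), Tnni3 (0.132) and Vwf (0.0604). Low reads limit Pmaip1 and Psrc1.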

Other observations

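CKO 2 was the highest CKO library in 15 of the 30 tested members (50%), against 31% of all genes tested, and flox control 2 was the highest control in 15 (50%), against 38.2%. CKO 2 led in Trp53, Mdm2, Cdkn1a, Ccng1, Bax, Apaf1, Phlda3, Aen, Zmat3 and Polk, among others, and it was the lowest CKO library in 11 of 30 (36.67%, against 34.86% of all genes), among them the called Dcxr and Ephx1. Among all 691 genes called higher, CKO 3 was highest in 54.4% and CKO 2 in 26.6%. These shares are descriptions of the libraries.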
